A study of Mus musculus with 50 samples.

Results

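The genes described here encode the LSD1-CoREST-HDAC repressor complex and its close partners, a set of 10 chosen by symbol: Kdm1a, Rcor1, Phf21a, Hmg20b, Hdac1, Hdac2, Hdac3, Zmym2, Zmym3 and Gse1. All 10 were among the 11708 genes of the count table. RNA was sequenced from 18 whole brains of E13.5 mouse embryos of strain FVB/ANTJ, in 6 groups of 3 libraries. One set of 9, called the gtf2i cross here, held 3 embryos labelled wt, 3 labelled gtf2i and 3 labelled gtf2i/gtf2i, and the other set of 9, the ird1 cross, held 3 labelled wt for that comparison, 3 labelled ird1 and 3 labelled ird1/ird1. The groups gtf2i and ird1 were read as carrying 1 mutant allele, and those with a slash as carrying the mutant allele on both chromosomes; the labels describe neither the alleles nor any driver line. The labels also do not say whether replicates came from separate litters, so p-values measure the spread between these libraries. The 32 chromatin immunoprecipitation and input samples of the series were not analysed here.

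TFII-I, the product of Gtf2i, is a multifunctional transcription factor that has been purified together with a complex built around the demethylase LSD1 and the scaffold CoREST. LSD1 removes methyl groups from lysine 4 of histone H3, the scaffold couples it to a histone deacetylase, and the accessory subunits place the complex on nucleosomes or on DNA-bound factors. In the embryonic brain the complex is best known for holding neuronal genes silent, through the factor REST, in cells that are not yet neurons.

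Total counts ran from 3239117 to 7371483 per library, and levels are given as CPM, counts put on a common library size with TMM factors. Gtf2i averaged 624 ± 30.7 CPM in wt, 368 ± 6.23 in gtf2i and 82.5 ± 0.797 in gtf2i/gtf2i (SD, n = 3), which goes with the labels of that cross. Gtf2ird1 transcript did not fall in the ird1 cross but stood at 98.2 ± 13.5 CPM in wt, 149 ± 1.93 in ird1 and 223 ± 4.21 in ird1/ird1 (SD, n = 3), so its level separates those groups without showing a loss. It was also higher in gtf2i/gtf2i, by 1.52 on the log2 scale against wt (edgeR adjusted p 5.61e-07). Of the lists of brain markers, 16 of 16 radial glia genes, 18 of 18 neuron genes and 20 of 20 telencephalon genes were in the table, but 8 of 15 hindbrain and midbrain genes, 8 of 11 choroid plexus genes and 5 of 10 microglia genes. The library with the lowest total, wt replicate 2 of the ird1 cross, stood apart for these genes: it had the highest Gse1 and Hmg20b and the lowest Zmym2 and Rcor1 of all 18 libraries. The differences described below that turn on Gse1, Hmg20b, Zmym2 or Rcor1 in that cross are given with and without it.

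Rcor1, the CoREST scaffold, and Zmym2, a zinc finger subunit, are shown with the bases just upstream of their annotated starts, since this pair had one of the highest correlations among members in deviations from the group means, with r of 0.81 (exact permutation p 0.00392, adjusted 0.0588 over 45 pairs, which did not pass). Without 2 libraries of the ird1 cross r was 0.68. Genes outside the set reached r of 0.97 with Rcor1, as given below. The sequences are from RefSeq on GRCm38.p6, the plus strand of chr12:111039117-111039366 for Rcor1 and of chr14:56886353-56886528 for Zmym2. Each is written 5′ to 3′ up to the base before the gene's first annotated base, and capitals mark CpG dinucleotides.
Rcor1: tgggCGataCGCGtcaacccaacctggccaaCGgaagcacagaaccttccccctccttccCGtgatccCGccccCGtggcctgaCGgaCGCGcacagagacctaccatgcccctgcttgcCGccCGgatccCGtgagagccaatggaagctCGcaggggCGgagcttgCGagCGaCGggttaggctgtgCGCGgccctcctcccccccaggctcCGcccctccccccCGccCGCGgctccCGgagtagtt
Zmym2: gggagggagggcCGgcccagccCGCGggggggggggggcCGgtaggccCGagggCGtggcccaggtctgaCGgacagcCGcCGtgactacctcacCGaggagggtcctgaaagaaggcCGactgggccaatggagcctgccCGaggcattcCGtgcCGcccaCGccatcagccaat
The Rcor1 stretch of 250 bases was 70.4% G or C with 25 CpG, and the Zmym2 stretch of 176 bases was 73.3% G or C with 15 CpG. Over 32851 annotated starts the median of the 250 bases upstream was 52.4% G or C with 6 CpG, and the full 250-base window of Zmym2 had 74.4% with 23. High values were not particular to this pair. Windows of other members ran from 30.8% with 0 CpG, in window 2 of Phf21a, to 75.6% with 30, in its window 1. That of Hdac2 had 68.8% with 27 and that of Kdm1a 59.2% with 21. Neither stretch held GGATTA or CACGTG, which were searched on both strands and occur in 6.25% and 6.02% of those windows. Among the other members with a RefSeq window, 1 of the 3 windows of Gse1 held 1 copy of GGATTA.

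Kdm1a and Hdac1 share chr4, Hdac2 and Hmg20b share chr10, and the other genes placed here lie on separate chromosomes. The position of Hdac3 is not reported here. On GRCm38.p6 Kdm1a is at chr4:136550533-136602787, Hdac1 at chr4:129516104-129542646, Hdac2 at chr10:36974297-37001889, Hmg20b at chr10:81346046-81350943, Rcor1 at chr12:111039367-111115902, Zmym2 at chr14:56886529-56962358, Phf21a at chr2:92183751-92364667 and Gse1 at chr8:120228501-120581383. Zmym3 is X-linked, at chrX:101404384-101421385.

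Levels were first compared between the genes, per kilobase of the transcript length given in the table. Kdm1a, which encodes LSD1 itself, was the most abundant, at 101 ± 3.87 CPM per kb over the 18 libraries (SD). Hdac2 followed at 73.9 ± 6.93 CPM per kb, and Hdac3 at 34.5 ± 2.70 CPM per kb. Each of these levels was above the next in 18 of 18 libraries, and Hdac3 was above Gse1 in 18 of 18. The accessory genes formed a middle group, with Gse1 at 26.5, Zmym3 at 24.7, Zmym2 at 23.6, Hmg20b at 22.7 and Phf21a at 20.6 CPM per kb. Neighbours within that group were not separated by library: Zmym3 was above Zmym2 in 11 of 18, Zmym2 above Hmg20b in 9 of 18 and Hmg20b above Phf21a in 12 of 18, while Gse1 was above Zmym3 in 16 of 18. The scaffold gene Rcor1 was low, at 9.83 ± 1.26 CPM per kb, below Phf21a in 18 of 18 libraries. Hdac1 was lowest at 6.69 ± 0.797 CPM per kb, below Rcor1 in 17 of 18 libraries. Its counts were 40 to 117 per library, which alone gives a counting error of up to 15.8%. RefSeq lists a processed copy, Hdac1-ps, at chr17:78491565-78493541, which is 1977 bases long against 2038 for the Hdac1 transcript. How reads that match both were counted is not given in the sources used here, so the level of Hdac1 is uncertain.

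**Figure D1:**
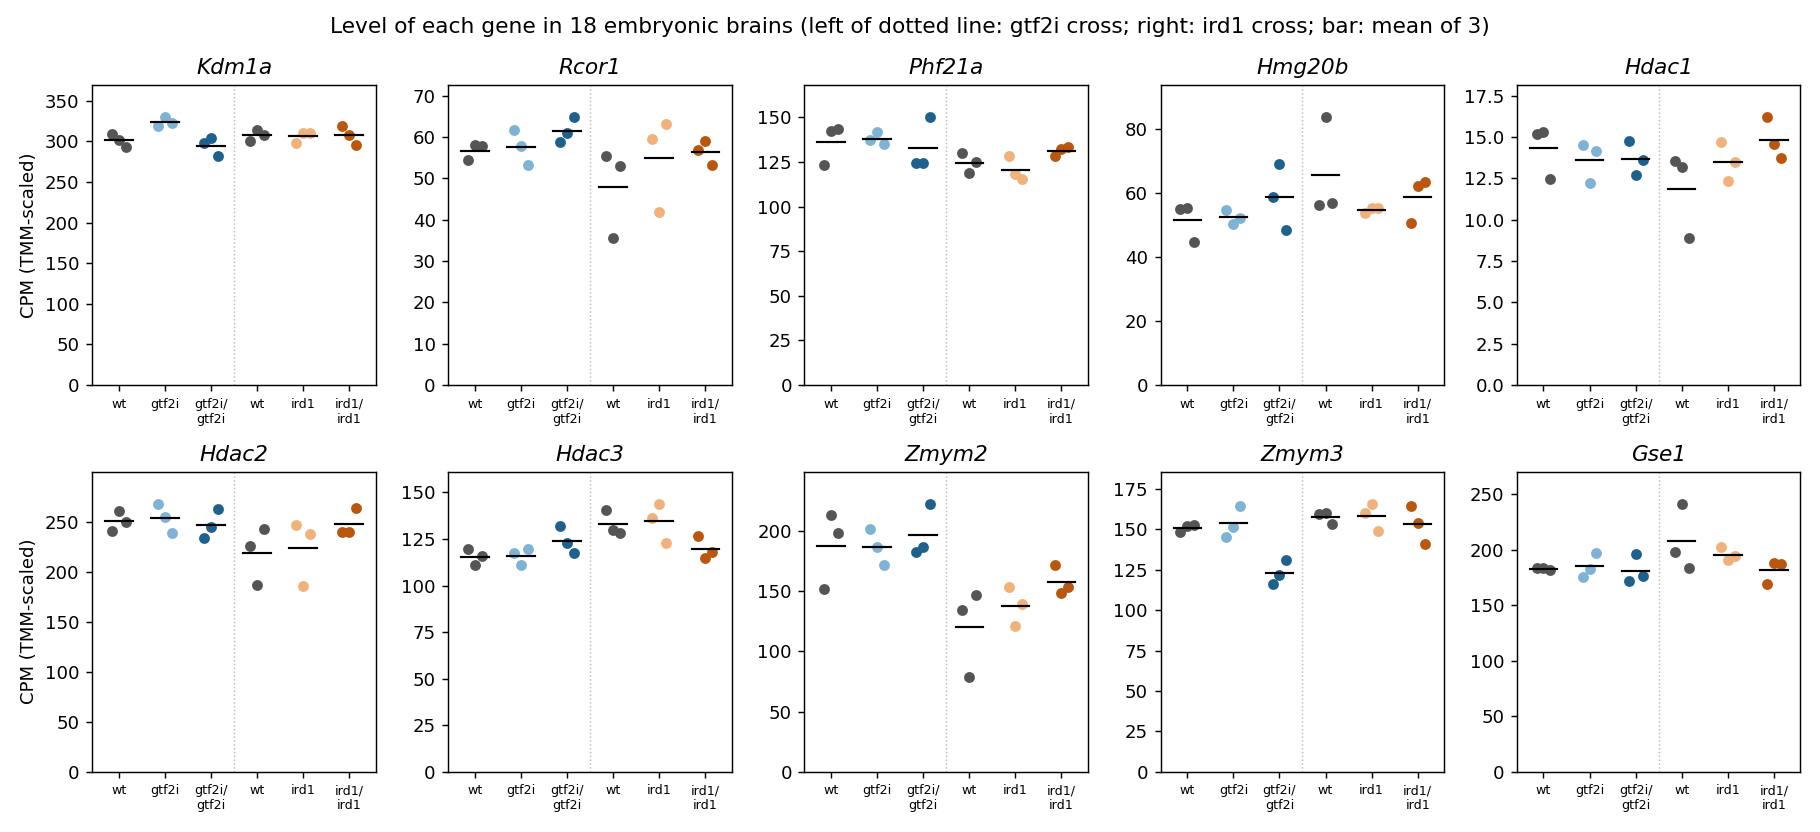
Level of each of the 10 genes in every library, in TMM-scaled CPM on axes that start at 0; points are single embryos, bars are means of 3, and the dotted line parts the gtf2i cross (left) from the ird1 cross (right). Zmym3 is at 116 to 131 CPM in the gtf2i/gtf2i embryos and at 141 to 166 CPM in the other 15, while Kdm1a stays between 282 and 330 CPM.

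The central question is whether transcripts of the complex change when Gtf2i is mutated. In gtf2i/gtf2i against wt, 0 of 10 members were called at an adjusted p under 0.05 in edgeR's quasi-likelihood fit (Benjamini-Hochberg over all genes), where 0.94% of all genes were called, and 0 with DESeq2, which called 2.75% of all genes. With the number that opens the sample titles as a block, 1 member, Zmym3, was called, where 5.33% of all genes were. With single libraries left out, the share over all genes was lowest without wt replicate 3, at 0.239% with 0 members called. It was highest without gtf2i/gtf2i replicate 3, at 9.9% with Zmym3 called. With the Kdm5c level as a covariate, described below, the share was 0.0598%. In the main fit 1 member, Zmym3, had an unadjusted p under 0.05, where 14.4% of all genes did. The median log2 fold change of the members was -0.02, beside 0.00 over all genes, and the median absolute change was 0.06, beside 0.12. In gtf2i against wt, 0 members were called, where 0.00854% of all genes were, and 0 had an unadjusted p under 0.05, where 1.6% did; DESeq2 also called 0, where it called 0.0512% of all genes. Between gtf2i/gtf2i and gtf2i, 1 of 10 was called, Zmym3, where 3.12% of all genes were called and 1.79% were called lower. It was also the 1 member with an unadjusted p under 0.05 there, where 16.5% of all genes had one. DESeq2 also called Zmym3 alone of the members, where it called 4.3% of all genes. With single libraries left out, the edgeR share here ran from 0.572% without gtf2i replicate 2, where 0 members were called, to 11.8% without gtf2i/gtf2i replicate 3, where Zmym3 was.

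Zmym3 encodes an MYM-type zinc finger protein found in LSD1-CoREST complexes. Its level in wt of the gtf2i cross was 148, 152 and 153 CPM, in gtf2i 145, 151 and 165 CPM, and in gtf2i/gtf2i 116, 122 and 131 CPM. All 3 gtf2i/gtf2i libraries were below those of wt and gtf2i, and wt and gtf2i overlapped. Against gtf2i the level was 80.1%, a fall of 0.32 on the log2 scale (SE 0.0827, 95% interval -0.50 to -0.15, edgeR adjusted p 0.0498). Against wt it was 81.6%, a log2 fold change of -0.30 (SE 0.0827, 95% interval -0.48 to -0.12, unadjusted p 0.00283, edgeR adjusted p 0.0919), which did not pass. These comparisons share the gtf2i/gtf2i libraries. Against wt, 16.8% of all genes had groups without overlap, as had Zmym3 and Rcor1 of the 10 members. Against gtf2i, 19.2% had, as had Zmym3 and Kdm1a.

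The call of Zmym3 lay close to the threshold. Against gtf2i its adjusted p ran from 0.00998 to 0.257 over 14 alternatives, 6 of which called it, and the log2 fold change ran from -0.37 to -0.27. The fit without a filter, counted among those 6, repeats the main fit because the filter removed 0 genes. The call was lost without gtf2i/gtf2i replicate 1 or 2 (adjusted p 0.179 and 0.181 by edgeR), without gtf2i replicate 1, 2 or 3 (0.054, 0.159 and 0.257), with RLE scaling (0.0503) with only the groups compared in the fit (0.0868) and with the Kdm5c covariate described below (0.151). Against wt the adjusted p ran from 0.0182 to 0.614, and the gene was called in 2 of 14 alternatives. One was the fit with the number that opens the sample titles as a block, where the log2 fold change was -0.30 and the edgeR adjusted p 0.035; that fit called 624 genes, 5.33% of all. The other left out gtf2i/gtf2i replicate 3, with a log2 fold change of -0.34 and an adjusted p of 0.0182, and called 9.9% of all genes. A call of 1 in 10 members is near those shares.

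Other measures that moved with the group are given beside this fall. The summed level of the 20 telencephalon markers was 1757 to 1802 CPM in gtf2i/gtf2i, 2688 to 2788 CPM in gtf2i and 2382 to 2789 CPM in wt. Against wt, 19 of 20 were lower and 9 were called lower, where 0.94% of all genes were called. Against gtf2i, 17 of 20 were lower and 13 were called lower, where 1.79% of all genes were called lower. The 10 red blood cell genes in the table, of 14 listed, summed to 5866 to 9275 CPM in gtf2i/gtf2i, 3876 to 4269 CPM in gtf2i and 4181 to 5386 CPM in wt, and 9 of 10 were higher than in wt. Of these 10, 2 were called higher against wt, Hbb-y and Slc4a1 (log2 fold changes 0.76 and 0.83), and 5 were called higher against gtf2i, where 3.12% of all genes were called. The 16 radial glia genes summed to 4135 to 4751 CPM in gtf2i/gtf2i, 3630 to 4110 CPM in gtf2i and 3505 to 3911 CPM in wt, with 11 higher than in wt. Against gtf2i 11 were higher and 5 lower, and 3 were called higher, Hes5, Nes and Vim. The 8 midbrain and hindbrain genes in the table, of 15 listed, had positive log2 fold changes against wt, though their sums overlapped, at 405 to 582 and 410 to 445 CPM. In gtf2i they summed to 359 to 388 CPM, without overlap with gtf2i/gtf2i. Against gtf2i 8 were higher and 1, Irx3, was called. The 8 choroid plexus genes in the table summed to 254 to 285 CPM in gtf2i/gtf2i and 334 to 427 CPM in wt, but 6 of 8 were higher (median log2 fold change 0.22) and 1, Ttr, was called lower (log2 fold change -1.63). Of the mesenchyme genes 12 of 15 were higher, with sums of 1266 to 2024 against 1152 to 1366 CPM. Of the endothelium genes 7 of 14 were higher, with sums of 507 to 594 against 474 to 568 CPM, and of the microglia genes 5 of 5, with sums of 65.1 to 82.7 against 50.1 to 70.0 CPM. Their part in the level of Zmym3 was not tested, and in whole brains fewer cells of a type and less RNA per cell cannot be told apart. The labels give no sex. Kdm5c, an X-linked gene known to escape X inactivation, was at 286, 303 and 287 CPM in wt, 401, 395 and 379 CPM in gtf2i and 314, 397 and 384 CPM in gtf2i/gtf2i. With the Kdm5c level as a covariate, which was tried only after these data were known, the log2 fold change of Zmym3 was -0.30 against gtf2i and -0.37 against wt, and neither passed (edgeR adjusted p 0.151 and 0.614). These fits called 1.38% and 0.0598% of all genes. The wt libraries lay below both mutant groups in Kdm5c, so against wt the covariate cannot be told apart from genotype. A part of sex in the level of Zmym3 was not tested.

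Kdm1a, the catalytic subunit, was the steadiest of the set. It was at 309, 302 and 293 CPM in wt, 319, 330 and 323 CPM in gtf2i and 298, 304 and 282 CPM in gtf2i/gtf2i. The gtf2i libraries were above all those of the other groups in the cross, by small margins: the log2 fold change of gtf2i against wt was 0.10 (95% interval -0.05 to 0.25, edgeR adjusted p 1.00), with no overlap between libraries, as for 7.27% of all genes. The log2 fold change of gtf2i/gtf2i against gtf2i was -0.14 (95% interval -0.29 to 0.01, adjusted p 0.34 by edgeR), and against wt it was -0.04 (95% interval -0.19 to 0.11). In the ird1 cross the means of its 3 groups were 307, 306 and 307 CPM. The standard deviation of Kdm1a between libraries of a group was 0.0416 on the log2 scale. Of 727 genes with a mean CPM within 1.5-fold of its own, 8 had a smaller one.

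Rcor1, Phf21a and Hmg20b make up the core with Kdm1a. Rcor1 was at 54.4, 58.0 and 57.9 CPM in wt and at 58.9, 61.0 and 64.9 CPM in gtf2i/gtf2i, so the groups did not overlap, with a log2 fold change of 0.11 (95% interval -0.09 to 0.32, edgeR adjusted p 0.678). Phf21a, whose product binds unmethylated histone H3 tails, was at 123, 143 and 144 CPM in wt and 124, 124 and 150 CPM in gtf2i/gtf2i, and the groups overlapped. Hmg20b, an HMG-box subunit, was at 54.9, 55.3 and 44.6 CPM in wt and 58.8, 68.8 and 48.2 CPM in gtf2i/gtf2i, again with overlap. Its 95% interval, -0.11 to 0.45 on the log2 scale, was the widest of the set after that of Hdac1.

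The deacetylase genes were likewise not called. Hdac2, by these counts the more abundant of the 2 deacetylases of the CoREST core, was at 241, 260 and 250 CPM in wt and 234, 245 and 262 CPM in gtf2i/gtf2i, with a log2 fold change of -0.03 (95% interval -0.20 to 0.14). Hdac1 had a log2 fold change of -0.06 with an interval of -0.38 to 0.26, the widest of the set. Hdac3, the catalytic subunit of the NCoR and SMRT complexes and a reported partner of TFII-I, had a log2 fold change of 0.09 (95% interval -0.08 to 0.27). It averaged 116 ± 4.24 CPM in wt and 124 ± 7.22 CPM in the homozygotes (SD, n = 3). Zmym2, the close relative of Zmym3, was at 151, 213 and 198 CPM in wt and 182, 186 and 222 CPM in gtf2i/gtf2i, a log2 fold change of 0.06 (95% interval -0.20 to 0.33). Gse1, a coiled-coil subunit, was at 183, 183 and 181 CPM in wt and 171, 196 and 176 CPM in gtf2i/gtf2i. In data simulated for this comparison, 28 of 50 genes lowered by 0.5 on the log2 scale and 49 of 50 lowered by 1 were called. The standard deviation between libraries of a group ran from 0.0416 for Kdm1a to 0.254 for Zmym2 on the log2 scale. Recovery at the spread of each member was not tested.

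**Figure D2:**
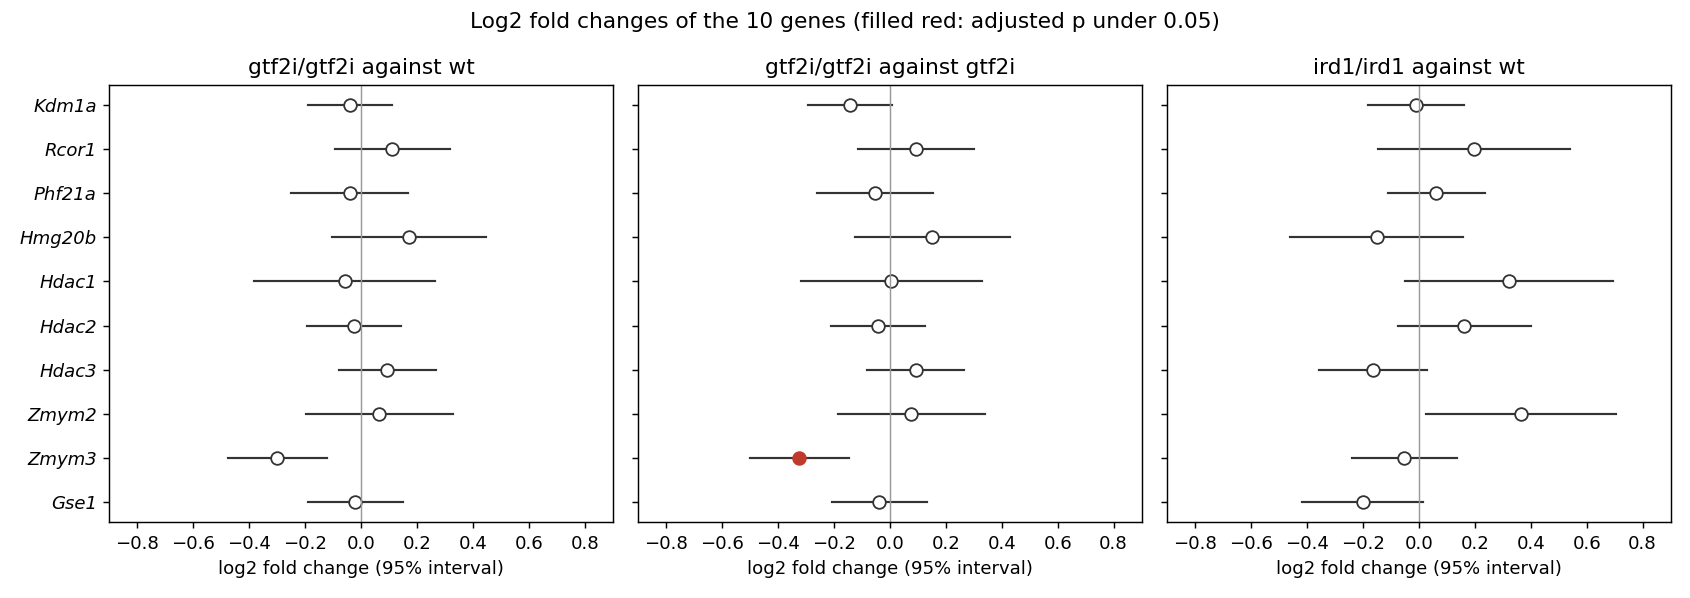
Log2 fold change of each gene with its 95% interval, from edgeR's quasi-likelihood fit, in 3 comparisons; the grey line is no change and the filled red point is the call at an adjusted p under 0.05. The interval of Zmym3 lies below 0 in both comparisons of the gtf2i cross, and that of Zmym2 lies above 0 in ird1/ird1 against wt.

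In the ird1 cross 0 of 10 members were called in any comparison by edgeR or DESeq2, which called 1 gene, 0.00854% of all, in each. In ird1/ird1 against wt, 0.00854% of all genes were called, and 1 member, Zmym2, had an unadjusted p under 0.05, where 16.1% of all genes did. Without wt replicate 2 these were 0 members and 7.49% of all genes. In ird1 against wt and in ird1/ird1 against ird1, 0% of all genes were called, and 0 members had an unadjusted p under 0.05, where 3.02% and 4.66% did. Zmym2 was at 135, 78.6 and 147 CPM in wt, 154, 121 and 139 CPM in ird1, and 172, 148 and 154 CPM in ird1/ird1. The wt and ird1/ird1 libraries did not overlap, with a log2 fold change of 0.37 (SE 0.160, 95% interval 0.03 to 0.71, edgeR adjusted p 0.301). Without wt replicate 2, the library that stood apart, the log2 fold change was 0.16 (adjusted p 0.661 by edgeR), and without wt replicate 3 it was 0.54 (adjusted p 0.233), in a range of adjusted p from 0.195 to 0.661 over 14 alternatives.

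Hdac1 and Hdac3 also did not overlap between ird1/ird1 and wt, as for 26.9% of all genes. Hdac1 was at 13.6, 13.2 and 8.88 CPM in wt and 16.2, 14.6 and 13.7 CPM in ird1/ird1, a log2 fold change of 0.32 (95% interval -0.05 to 0.69, edgeR adjusted p 0.341). It was 0.15 without wt replicate 3, the lowest library, and 0.49 without wt replicate 1. Hdac3 was at 141, 130 and 128 CPM in wt and 126, 115 and 118 CPM in ird1/ird1, a log2 fold change of -0.16 (95% interval -0.36 to 0.03, edgeR adjusted p 0.346). Both intervals include 0. Zmym3 was at 160, 160 and 153 CPM in wt and 164, 154 and 141 CPM in ird1/ird1, with overlap and a log2 fold change of -0.05 (95% interval -0.24 to 0.14). Rcor1 ranged from 35.5 to 63.3 CPM over the 9 libraries of this cross, and its log2 fold change in ird1/ird1 against wt was 0.20 (95% interval -0.15 to 0.54), or 0.05 without wt replicate 2. Gse1 had -0.20 (95% interval -0.42 to 0.01), or -0.08 without it, and Hmg20b -0.15 (95% interval -0.46 to 0.16), or 0.05 without it. Between ird1 and wt the libraries of Hmg20b did not overlap, as for 7.04% of all genes, with a log2 fold change of -0.23, or -0.04 without wt replicate 2. Libraries also did not overlap between ird1/ird1 and ird1 for Phf21a and Gse1, as for 17% of all genes.

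Whether the effects of gtf2i/gtf2i and ird1/ird1 differ was tested in a fit to all 18 libraries. The difference was called for 0 of 10 members by edgeR and by DESeq2, where 0.171% and 0.717% of all genes were called, and 2 members had an unadjusted p under 0.05, where 13% of all genes did. Without gtf2i/gtf2i replicate 3, edgeR called 723 genes, 6.18% of all, and again 0 members, and 3 members had an unadjusted p under 0.05, Hmg20b being added. For Zmym3 the log2 difference was -0.25 (95% interval -0.48 to -0.02, unadjusted p 0.0349, edgeR adjusted p 0.35). For Hdac3 it was 0.25 (95% interval 0.02 to 0.49, unadjusted p 0.036, edgeR adjusted p 0.354). The fall of Zmym3 in gtf2i/gtf2i is therefore not shown to differ from its change in ird1/ird1.

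The wt groups of the crosses carry no mutant allele and give a yardstick for differences without one. The wt groups did not overlap for 5 of 10 members, as for 32% of all genes, and 3 had an unadjusted p under 0.05, as did 32.7% of all genes. By edgeR 0 members were called, where 0% of all genes were, and DESeq2 called 1, Zmym2, where it called 13.3% of all genes. Zmym2 in the wt embryos of the ird1 cross was 63.9% of its level in those of the gtf2i cross, a log2 fold change of -0.63 (SE 0.163, 95% interval -0.96 to -0.29, edgeR adjusted p 0.0689). Over 10 alternatives the adjusted p ran from 0.0193 to 0.297. It was called without wt replicate 1 of the ird1 cross, in a fit that called 8.81% of all genes, and without that of the gtf2i cross, in one that called 17.7%, so 1 call in 10 members is near the share over all genes. Its log2 fold change was -0.42 when replicate 2 of the ird1-cross wt embryos was left out. Hdac3 and Hmg20b were higher in the wt embryos of the ird1 cross by 0.20 and 0.32 on the log2 scale, and neither passed (edgeR adjusted p 0.0985 and 0.132). With that same library left out these were 0.21 and 0.13. For Zmym2 this log2 fold change was larger in size than any between genotypes within a cross.

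Ratios of related genes within 1 library do not depend on how libraries are scaled. The ratio of Zmym2 to Zmym3 counts per kb was 0.888, 1.22 and 1.13 in wt of the gtf2i cross and 1.36, 1.33 and 1.47 in gtf2i/gtf2i. In the ird1 cross it was 0.732, 0.426 and 0.832 in wt and 0.908, 0.835 and 0.947 in ird1/ird1. Within each cross the mutant libraries were above all the wt libraries, with log2 differences of 0.37 and 0.49. In the ird1 cross the difference was 0.20 without wt replicate 2, and in the gtf2i cross it was 0.24 without wt replicate 1. The exact permutation test gave p = 0.1 for each, the smallest that 3 against 3 allows, and an adjusted p of 0.267 over the 8 ratio tests. In the gtf2i cross the gap came with lower Zmym3, while in the ird1 cross Zmym3 overlapped between groups and Zmym2 was higher. The ird1/ird1 ratios were below those of 2 of the 3 wt libraries of the gtf2i cross.

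Rcor1 has a relative, Rcor2, which is the more abundant scaffold gene here. The ratio of Rcor2 to Rcor1 per kb averaged between 10.2 and 17.2 in the 6 groups. In the ird1 cross it was 12.0, 26.5 and 13.1 in wt and 10.2, 10.1 and 11.3 in ird1/ird1, a log2 difference of -0.61 (exact permutation p = 0.1, adjusted 0.267), or -0.25 without wt replicate 2. The value of 26.5 belongs to wt replicate 2, which also had the most Rcor2, at 467 CPM, and the least Rcor1. In gtf2i/gtf2i against wt the log2 difference was -0.02 (exact permutation p = 0.9). The ratio of Hdac2 to Hdac1 averaged 10.3 to 12.2 by group and overlapped between mutant and wt libraries in each cross. Its size is uncertain, as is the level of Hdac1.

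**Figure D3:**
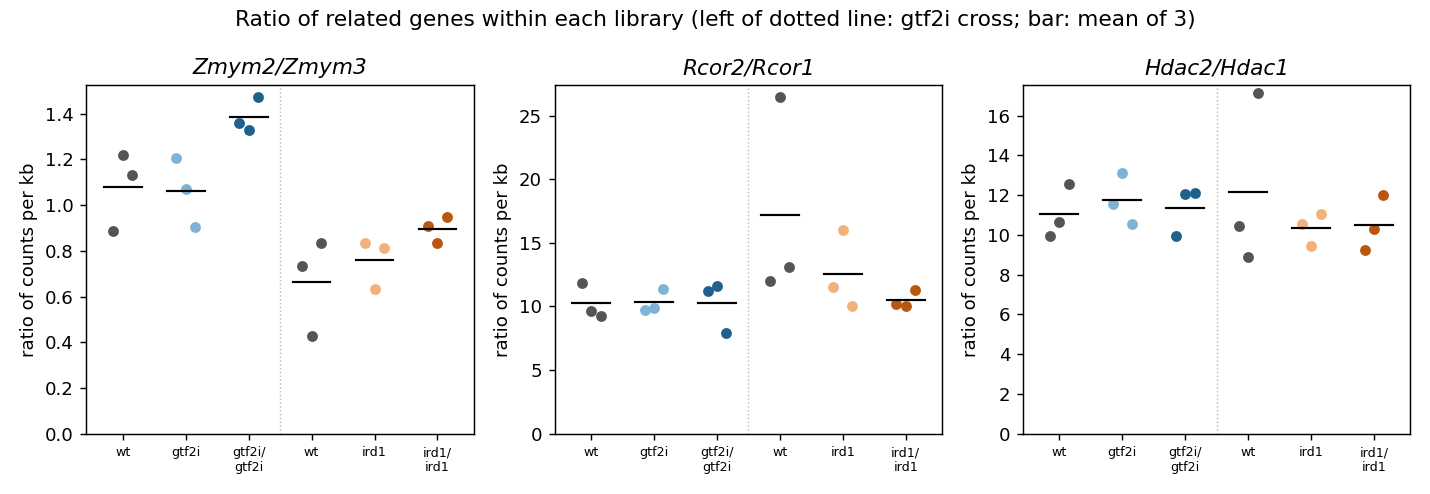
Ratio of 3 pairs of related genes in each library, as counts per kb on axes that start at 0; points are embryos, bars are means of 3, and the dotted line parts the gtf2i cross from the ird1 cross. The Zmym2 to Zmym3 ratio is 1.33 to 1.47 in gtf2i/gtf2i, above the other 15 libraries, and the Rcor2 to Rcor1 ratio of 26.5 is 1 wt library of the ird1 cross.

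Members were next compared with each other by their deviations from the group means of log2 CPM over the 18 libraries. Pairs among Rcor1, Hdac2 and Zmym2 had high correlations that did not pass after adjustment. Pearson's r was 0.87 for Rcor1 and Hdac2 (Spearman's rho 0.77), 0.81 for Rcor1 and Zmym2 (rho 0.82) and 0.79 for Hdac2 and Zmym2 (rho 0.77). Exact permutation within groups gave p of 0.0202, 0.00392 and 0.00129 for r, and 0.0141, 0.00246 and 0.00191 for rho. Over the 45 pairs computed the adjusted p was 0.169, 0.0588 and 0.055 for r and 0.127, 0.0502 and 0.0502 for rho, so none passed. Without the 2 libraries farthest from the median of the first gene, wt replicate 2 and ird1 replicate 2 of the ird1 cross, r was 0.67, 0.68 and 0.72.

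With the other accessory genes, Zmym2 had correlations of both signs. With Phf21a r was 0.64 and rho 0.69 (exact permutation p 0.0126 and 0.0122, adjusted 0.142 and 0.127), and r was 0.76 without 2 libraries. With Hmg20b and Gse1 r was -0.73 and -0.71 (exact permutation p 0.026 and 0.0408, adjusted 0.169 and 0.184). Their Spearman's rho was -0.56 and -0.53 (exact permutation p 0.0555 and 0.0645, adjusted 0.250 and 0.264). Without the 2 libraries farthest from the median of Zmym2, wt replicates 2 and 3 of the ird1 cross, r was -0.53 and -0.32, so the relation with Gse1 rests largely on them. Kdm1a and Phf21a had r of -0.77 and rho of -0.75 (exact permutation p 0.00244 and 0.00334, adjusted 0.055 and 0.0502), and r of -0.74 without 2 libraries. Zmym2 and Zmym3 had r of -0.01 and rho of 0.01 (exact permutation p 0.951 and 0.987). Of the 45 pairs, 19 had a positive r and 26 a negative one, with a median of -0.12, and 0 passed at an adjusted p under 0.05. All genes of a library share its RNA and depth, so the values describe these libraries.

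**Figure D4:**
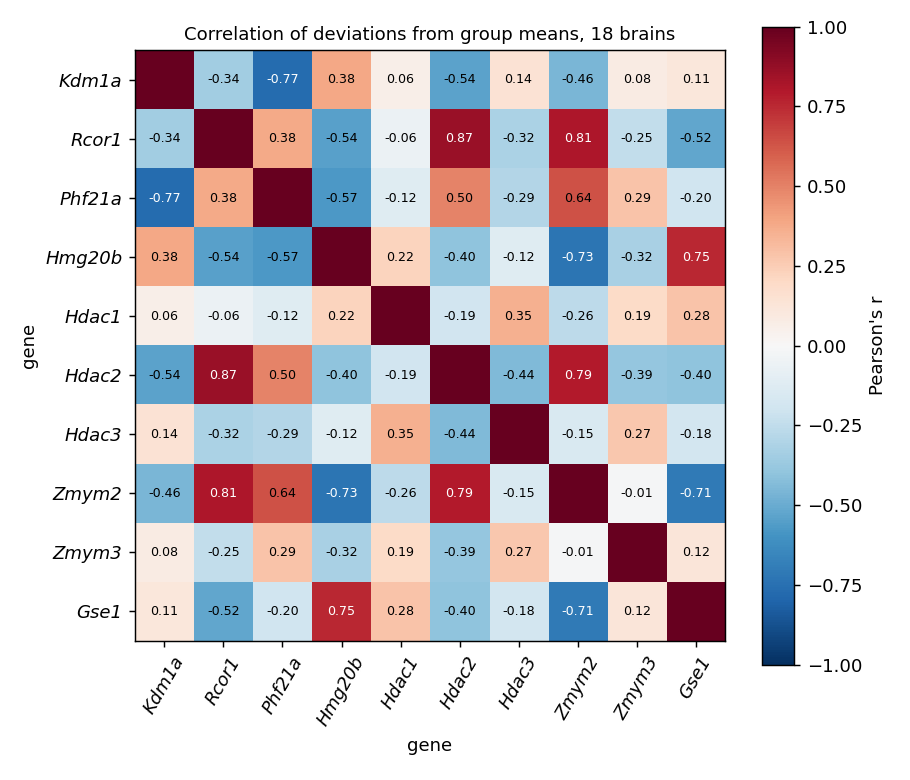
Pearson's r between each pair of the 10 genes, from deviations of log2 CPM from group means in 18 libraries; red is positive and blue negative, on a scale from -1 to 1. Rcor1, Hdac2 and Zmym2 form the block of high positive values, from 0.79 to 0.87, and Kdm1a with Phf21a is the lowest value, at -0.77.

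Among 9027 genes at a mean log2 CPM of 4 or more, those most like Rcor1 by the same measure were Shprh (r 0.97), Clcn3 (r 0.97) and Slc38a2 (r 0.96), over 18 libraries. Those most like Kdm1a were Rce1 (r 0.93), Thap4 (r 0.88) and Sumf2 (r 0.84). The values are the highest of 9027 and carry no test.

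The genes around the complex gave the following counts. Of 22 complex partners in the table, which include the targeted genes, 2 were called in gtf2i/gtf2i against wt, Gtf2i and Gtf2ird1, beside the 0.94% of all genes called there. The level of Rest, which recruits the complex to neuronal genes, had a log2 fold change of 0.15 (95% interval -0.07 to 0.38). Kdm1b, the second lysine-specific demethylase of this kind, had one of -0.01 (95% interval -0.27 to 0.25). Of 33 genes of other class I deacetylase complexes, 1 was called, Chd5, a neuronal chromatin remodeller of the NuRD family. Chd5 was at 124, 116 and 147 CPM in wt, 106, 146 and 164 CPM in gtf2i and 52.8, 52.9 and 91.6 CPM in gtf2i/gtf2i. The gtf2i/gtf2i libraries were below those of wt and gtf2i, where 16.8% and 19.2% of all genes had groups without overlap. Chd5 had a log2 fold change of -0.97 against wt (SE 0.201, edgeR adjusted p 0.0379) and -1.07 against gtf2i (edgeR adjusted p 0.0133). Against wt it was called in 7 of 14 alternatives (adjusted p 0.000164 to 0.614), with a log2 fold change of -1.29 to -0.82. The call was lost on leaving out gtf2i/gtf2i replicate 1 or 2 or any 1 of the wt libraries, with only the groups compared in the fit, and with the Kdm5c covariate. Of 8 other histone deacetylases and 15 enzymes that add or remove methyl groups at lysine 4 of histone H3, 0 were called by edgeR and 1, Kdm5c, by DESeq2, and the unadjusted edgeR p was under 0.05 for 0 and 1 of them, beside 14.4% of all genes. The largest log2 fold changes of these lists were -0.18 for Hdac11 and 0.31 for Kdm5c. In ird1/ird1 against wt, 1 gene of the whole table was called, Gtf2ird1.

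Neuronal genes known as targets of REST and CoREST were followed as well. Of 23 in the table, 20 were lower in gtf2i/gtf2i than in wt, and their median log2 fold change was -0.27, beside 0.00 for the whole table. By edgeR 0 of the 23 were called and by DESeq2 3 (2.75% of all genes), while 12 had an unadjusted p under 0.05 and were lower, as were 8.3% of all genes. Against gtf2i, 20 were lower, with a median of -0.32, and 3 were called lower, Grin1, L1cam and Unc13a, where 1.79% of all genes were. These counts of calls moved with single libraries: without gtf2i/gtf2i replicate 3, 12 were called against wt and 13 against gtf2i, in fits that called 9.9% and 11.8% of all genes, and 0 were called against gtf2i without gtf2i/gtf2i replicate 1 or 2 or gtf2i replicate 2 or 3. With the title number as a block, 7 were called against wt, beside 5.33% of all genes. Grin1, which encodes the obligate subunit of NMDA receptors, was at 16.7, 16.6 and 22.8 CPM in wt, 15.2, 20.1 and 27.1 CPM in gtf2i and 7.56, 8.08 and 12.5 CPM in gtf2i/gtf2i. The gtf2i/gtf2i libraries were below all others of the cross. Groups did not overlap for 19.2% of all genes against gtf2i and for 16.8% against wt. Grin1 had a log2 fold change of -1.14 against gtf2i (SE 0.244, edgeR adjusted p 0.025) and -0.99 against wt (SE 0.246, edgeR adjusted p 0.0683). L1cam, a neuronal adhesion molecule, and Unc13a, a presynaptic priming factor, had log2 fold changes of -0.60 and -0.45 against gtf2i (edgeR adjusted p 0.0325 and 0.0496).

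The REST and CoREST list overlaps with neuron markers, of which it shares 6 genes. The 18 neuron markers summed to 6274 to 8393 CPM in gtf2i/gtf2i and 7567 to 8478 CPM in wt, with 14 lower, beside the telencephalon sums given above. Their part in the lower levels of the list was not tested. In ird1/ird1 against wt, 12 of the 23 were lower (median -0.02 on the log2 scale), and 0 were called by edgeR or DESeq2. An unadjusted p under 0.05 was found for 5, of which 2 were higher and 3 lower, beside 16.1% of all genes in either direction. Without wt replicate 2 it was found for 3, beside 7.49%.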

How the data were processed

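Per the submitters' processing notes, reads were handled with Trimmomatic, STAR and HTSeq and the build mm10; versions, strand setting and the treatment of reads that match several genes are not given in the sources used here. The authors deposited whole-number counts per gene, without normalization, with 1 transcript length per gene as another column. Relative to the total count, before TMM scaling, no gene was below 2.90 CPM in any library, so genes of low count are missing from the deposited table. Libraries were made from total RNA depleted of ribosomal RNA with a kit that does not mark strand, per the labels' protocols, so reads of a gene and of an antisense partner cannot be told apart.

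The 10 members and all gene lists were chosen with earlier results of these data known, and every member was named. Of related genes, those called and the one with the largest change in a list could be named; others named, such as Rest, Kdm1b, Kdm5c, Ttr, Hbb-y and Slc4a1, were chosen after their values were seen. Scaling was by TMM, and the filterByExpr function removed 0 genes. The alternative without a filter, included in each count of alternatives, therefore repeats the main edgeR fit. Tests were edgeR's quasi-likelihood F tests with Benjamini-Hochberg adjustment over 11708 genes; called means an adjusted p under 0.05. Comparisons within a cross used its 9 libraries, with 6 residual degrees of freedom; the difference of effects and the wt comparison used all 18. Intervals are 95% and come from the moderated F statistic. Ratio tests were exact and two-sided, and were adjusted over 8, some of which are not reported here. Marker lists of red blood cells, mesenchyme, endothelium, microglia, choroid plexus, radial glia, neurons, telencephalon and hindbrain with midbrain were counted, without a set test. The fit, run in edgeR 4.0.16 (limma 3.58.1, R 4.3.3), was tested on simulated data, and DESeq2 1.42.0 was an alternative. Counting errors cover sampling of reads only. The 18 pairs of replicates exceeded sampling noise, with a chi-square of 2.9 to 29.5 times its degrees of freedom. Titles open with a number shared by several libraries, whose meaning the labels do not state. For gtf2i/gtf2i against wt, deviations of same-numbered libraries correlated at 0.104, 0.375 and 0.517. The main fits, their intervals and the ratio tests did not use these numbers. They entered only as a block in an alternative fit. Promoter windows are from RefSeq, GRCm38.p6. The symbols and identifiers of all 10 members matched the name table.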

Additional observations from a re-analysis of the deposited data

How the results depend on the processing

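The number of members called was 0 or 1 in each setting tried. In gtf2i/gtf2i against wt it was 0, and 1 with the replicate block, which called 5.33% of all genes; leaving out single libraries gave 0 to 1, and the 1 came in a fit that called 9.9% of all genes. In gtf2i/gtf2i against gtf2i it was 1, and 0 with RLE scaling, with only the groups compared and with the Kdm5c level as a covariate; leaving out single libraries gave 0 to 1. In wt of the ird1 cross against wt of the gtf2i cross it was 0, and 1 with DESeq2, which called 13.3% of all genes; leaving out single libraries gave 0 to 1. The cause of these changes was not tested. The replicate block, the number that opens the sample titles, changed no other count of called members; in the other comparisons within a cross the numbers were shared without every same-numbered pair correlating above 0.1. For wt against wt no paired analysis was possible because the crosses share no number. No member's called change turned its direction under any alternative run. Over single libraries left out, Zmym2 had the widest range of log2 fold change in ird1/ird1 against wt (0.16 to 0.54), and Hmg20b in gtf2i/gtf2i against wt (0.05 to 0.31). Hdac1 was limited by its counts of 40 to 117 per library, and the effect of its processed copy on them was not tested. In simulation with 3 libraries a group, changes of 0.5 on the log2 scale were recovered in 28 of 50 lowered genes and 26 of 50 raised genes. Recovery at the spread of each member was not tested.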

Other observations

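The other histone deacetylases, Hdac4 to Hdac11, are given above only for gtf2i/gtf2i against wt, as counts and the largest change. In ird1/ird1 against wt, 7 of the 8 were lower (median -0.19 on the log2 scale, beside 0.00 for the whole table), 0 were called by edgeR and 2 had an unadjusted p under 0.05, beside 16.1% of all genes. Without wt replicate 2 of that cross 7 were lower, with a median of -0.08, and 1 had an unadjusted p under 0.05, beside 7.49% of all genes. In wt of the ird1 cross against wt of the gtf2i cross, 7 of the 8 were higher, with a median of 0.19, and 0.08 without that library. Of the 8 in ird1/ird1 against wt, Hdac8, a deacetylase that acts on cohesin, had the largest log2 fold change, -0.31 (95% interval -0.69 to 0.07), and Hdac7, a class IIa deacetylase, had -0.29 (95% interval -0.50 to -0.07, edgeR adjusted p 0.296). In gtf2i/gtf2i against wt, 4 were lower and 4 higher, with a median of 0.00. Their summed level was 620 to 642 CPM in ird1/ird1, 656 to 837 CPM in wt of that cross, with a median of 678, and 603 to 656 CPM in wt of the gtf2i cross.

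Kdm5c, which removes methyl groups from lysine 4 of histone H3, had a log2 fold change of 0.42 in gtf2i against wt (95% interval 0.23 to 0.62, unadjusted p 0.000387, edgeR adjusted p 0.881) and 0.31 in gtf2i/gtf2i against wt (edgeR adjusted p 0.103), with no overlap between libraries in either, as for 7.27% and 16.8% of all genes. In gtf2i against wt it was called in 1 of 13 alternatives, DESeq2 (adjusted p 0.0429 to 1.00 over them). In gtf2i/gtf2i against wt it was called in 3 of 13, DESeq2, the replicate block and the fit without gtf2i/gtf2i replicate 1 (adjusted p 0.0405 to 0.392). In the ird1 cross it was at 269, 404 and 376 CPM in wt, 373, 276 and 369 CPM in ird1, and 289, 379 and 350 CPM in ird1/ird1, so each genotype held both low and high libraries and the groups overlapped. It is X-linked and known to escape X inactivation, and the labels give no sex, whose part in these values was not tested.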
